A study of Mus musculus with 32 samples.

Results

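The enzymes of the tricarboxylic acid (TCA) cycle described here are 9 genes of interscapular brown adipose tissue (iBAT), Cs, Idh3a, Idh3b, Idh3g, Ogdh, Suclg1, Suclg2, Fh1 and Mdh2. They were chosen by name, as the 9 rows among the 50686 genes of the count table whose Ensembl identifiers map to these symbols. All 9 had counts in every library and passed the filter on low counts, which kept 15505 genes. The fat was taken from male C57BL/6J mice of 10 weeks that were fed chow and kept in mild cold under a light:dark cycle. Time is Zeitgeber time (ZT, hours after lights on), with the dark, active phase starting at ZT12. The 8 groups ran from ZT0 to ZT21 at steps of 3 h, with 4 mice at each, 1 stranded RNA-seq library per mouse and no treatment or genetic change in any group. Each mouse was sampled once, so a daily course is made of different animals, and RNA came from a homogenised piece of iBAT with all its cell types, so that which piece was taken cannot be told apart from a difference between mice.

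In the TCA cycle, acetyl-CoA from fatty acids and glucose is joined to oxaloacetate and burned stepwise to carbon dioxide, while NADH and FADH2 are passed to the respiratory chain. Brown adipocytes are packed with mitochondria, in which uncoupling protein 1 (UCP1) releases the energy of this oxidation as heat. The cycle is therefore the common last path for fuels that iBAT takes up at different times of day, and the comparison of time points asks whether its transcripts follow a daily rhythm.

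The libraries held 16300770 to 18254659 counts, and the mitochondrial genome took 18.5 to 28.2% of them. Levels are given in CPM, counts scaled to a common library size after each size was multiplied by its TMM factor (edgeR's trimmed mean of M values). These factors ran from 0.923 to 1.09. Markers of the tissue were present in every library. Ucp1 was at 955 to 4318 CPM and Cidea, a lipid droplet protein of brown fat, at 1529 to 2132 CPM. The libraries were not alike in cell types. Summed CPM of 12 skeletal muscle markers ran from 56.3 to 7846, with 8 libraries above 5 times the median, and that of 4 fibroblast markers (Col1a1, Col1a2, Pdgfra and Dcn) from 208 to 697. Lane 2 of the sequencer held the libraries of ZT0 to ZT6, lane 3 those of ZT9 to ZT15 and lane 4 those of ZT18 and ZT21, so that time and lane cannot be told apart between lanes.

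The TCA cycle enzymes were abundant and nearly level over the day. Together they took 1.15% ± 0.0557 of all counts (SD, n = 32), with 1.03% in the lowest library and 1.25% in the highest. These shares take no TMM factor. Their time-point mean was lowest at ZT3 (1.09%) and highest at ZT18 (1.166%), with 1.162% at ZT0. By mean CPM they ranked high among tested genes, from percentile 92.8 for Suclg2 to 99.9 for Ogdh. With TMM scaling the lowest time-point mean was at ZT3 for all 9 genes. The highest was at ZT0 for 7 genes, at ZT6 for Cs and at ZT12 for Ogdh. Between these extremes the means differed by 1.08-fold for Cs to 1.24-fold for Idh3g. In a bulk sample, fewer cells of a type and less RNA per cell cannot be told apart, and this holds for every level given below.

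**Figure D1:**
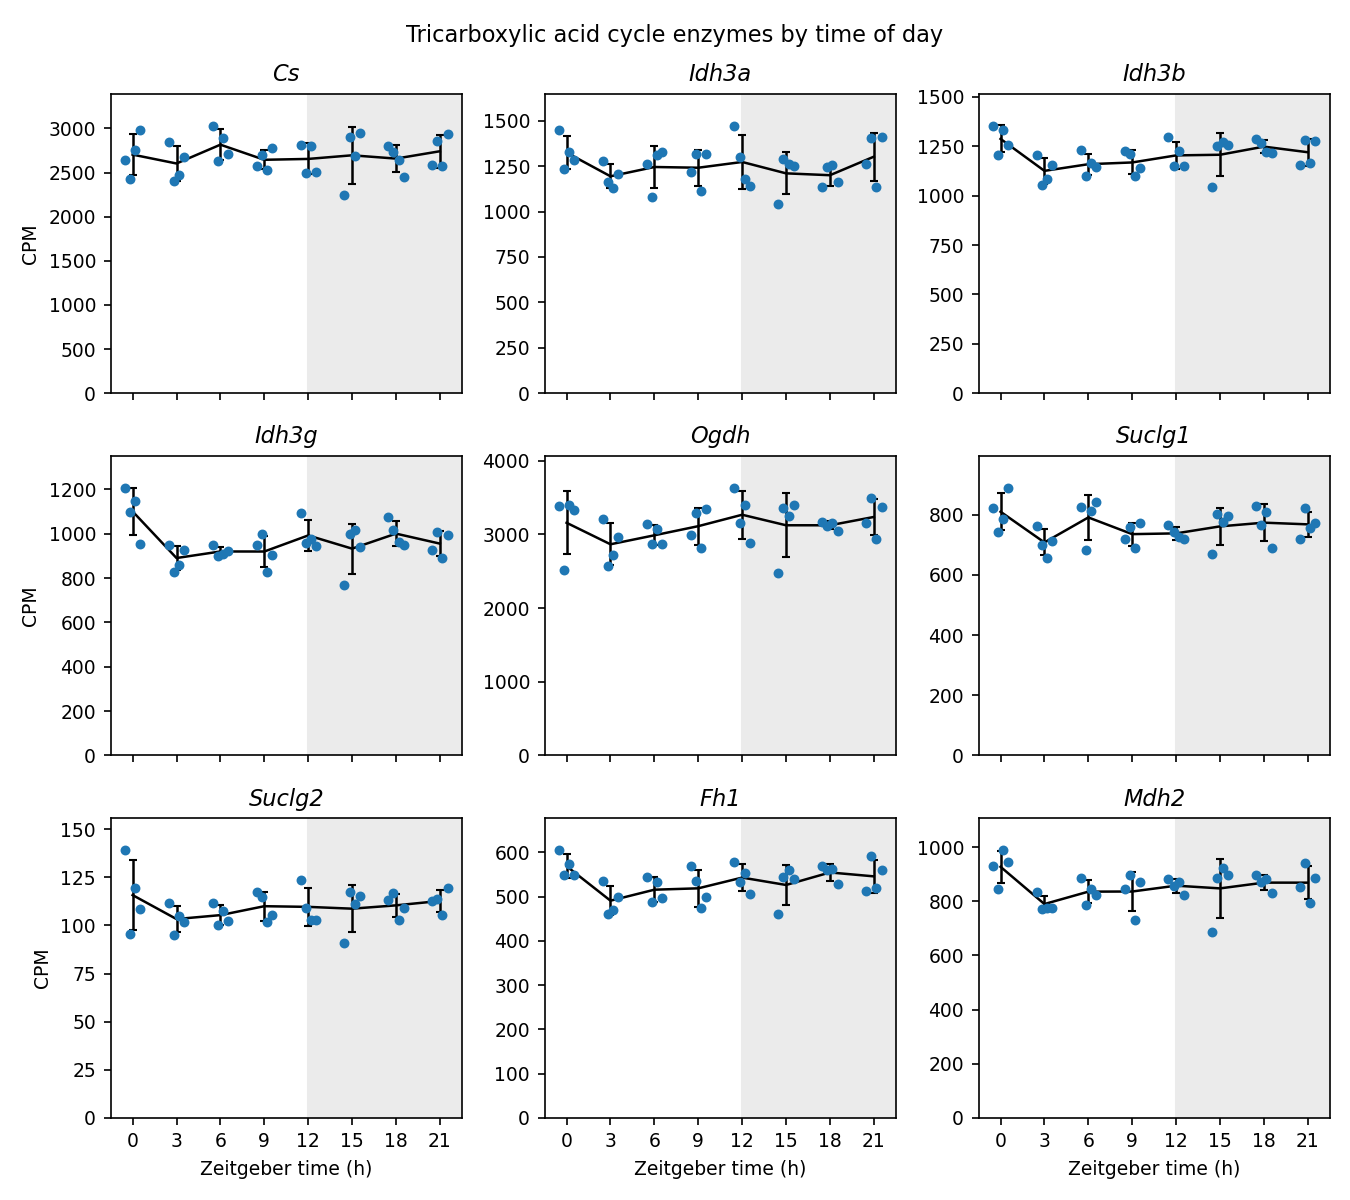
CPM (vertical axes, from 0) of the 9 enzymes by Zeitgeber time (horizontal axes, h); each point is 1 mouse, the line joins the means of 4 mice, bars are SD, and grey marks the dark phase. The means stay within 1.24-fold of each other in every panel, and the mouse at the bottom of ZT15 is the same animal in all 9 panels.

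Levels of different genes were compared per kilobase of annotated exon. Ogdh, the catalytic subunit of the 2-oxoglutarate dehydrogenase complex, was highest at 570 ± 52.7 CPM per kb (SD, n = 32). Cs, the citrate synthase that starts the cycle, followed at 466 ± 32.7 CPM per kb. Next came the regulatory subunits of the NAD-dependent isocitrate dehydrogenase, Idh3g at 357 ± 33.7 and Idh3b at 351 ± 22.9 CPM per kb, whose spreads over the libraries overlapped. Whether such genes differed within libraries was not tested. The spreads also overlapped for the catalytic subunit Idh3a (246 ± 20.6 CPM per kb) and Mdh2, the malate dehydrogenase of mitochondria (240 ± 18.1 CPM per kb). The same held for Suclg1, the alpha subunit of succinyl-CoA ligase, at 165 ± 12.1 CPM per kb and Fh1, the fumarase, at 157 ± 11.1 CPM per kb. Suclg2, the beta subunit of the GDP-forming succinyl-CoA ligase, was lowest by a wide margin at 23.7 ± 2.05 CPM per kb. The other beta subunit, Sucla2, which makes the ADP-forming enzyme, was at 365 ± 39.2 CPM per kb. At this exon length it was 15.5 times as high as Suclg2 in the median library and between 12.9 and 17.9 times as high in every library. The order and the distances depended on the length used. Over the longest transcript Cs (896 CPM per kb) stood above Ogdh (753 CPM per kb), and Mdh2 (532 CPM per kb) above Idh3a (484 CPM per kb) and Idh3g (464 CPM per kb). By that length Idh3b was at 587, Suclg1 at 275 and Fh1 at 202 CPM per kb, so Idh3b stood above Idh3g and Suclg1 above Fh1. Sucla2 was then at 653 and Suclg2 at 32.5 CPM per kb, and their ratio was wider.

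Through the day (mean ± SD, n = 4 mice at each time), Cs was at 2704 ± 228 CPM at ZT0, 2603 ± 200 at ZT3, 2817 ± 179 at ZT6, 2645 ± 110 at ZT9, 2655 ± 176 at ZT12, 2696 ± 321 at ZT15, 2659 ± 151 at ZT18 and 2742 ± 188 at ZT21. Ranked by level, each mean lay within the spread of the mice from the next. Among the isocitrate dehydrogenase subunits, Idh3a was at 1325 ± 90.9 CPM at ZT0, 1194 ± 65.2 at ZT3, 1246 ± 114 at ZT6, 1241 ± 98.6 at ZT9, 1273 ± 149 at ZT12, 1210 ± 115 at ZT15, 1200 ± 60.1 at ZT18 and 1302 ± 131 at ZT21. Idh3b was at 1288 ± 68.6 CPM at ZT0, 1126 ± 67.6 at ZT3, 1159 ± 53.5 at ZT6, 1168 ± 61 at ZT9, 1204 ± 70.1 at ZT12, 1207 ± 109 at ZT15, 1248 ± 34.2 at ZT18 and 1220 ± 67.2 at ZT21. Idh3g was at 1101 ± 108 CPM at ZT0, 891 ± 55.8 at ZT3, 920 ± 21.1 at ZT6, 920 ± 71.7 at ZT9, 993 ± 68.7 at ZT12, 933 ± 113 at ZT15, 1001 ± 57.5 at ZT18 and 956 ± 56.6 at ZT21. All 3 subunits were highest at ZT0 and lowest at ZT3 with TMM scaling. The coefficient of variation within time points was 8.57% for the catalytic Idh3a, 7.71% for Idh3g and 5.76% for Idh3b.

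Ogdh was at 3158 ± 426 CPM at ZT0, 2866 ± 283 at ZT3, 2988 ± 137 at ZT6, 3112 ± 253 at ZT9, 3267 ± 323 at ZT12, 3124 ± 434 at ZT15, 3124 ± 55.8 at ZT18 and 3237 ± 241 at ZT21. Its mice of ZT0, ZT3 and ZT12 overlapped. The alpha subunit Suclg1 was at 810 ± 61.4 CPM at ZT0, 708 ± 43.4 at ZT3, 791 ± 73.4 at ZT6, 736 ± 38.2 at ZT9, 738 ± 20.7 at ZT12, 761 ± 61.6 at ZT15, 774 ± 61.4 at ZT18 and 768 ± 41.8 at ZT21. The beta subunit Suclg2 was at 116 ± 18.4 CPM at ZT0, 103 ± 6.97 at ZT3, 105 ± 5.32 at ZT6, 110 ± 7.46 at ZT9, 110 ± 9.83 at ZT12, 109 ± 12.1 at ZT15, 110 ± 6.08 at ZT18 and 113 ± 5.81 at ZT21. Both subunits of the ligase had their highest mean at ZT0 with TMM scaling. There the mice of Suclg2 ran from 95.6 to 139 CPM and overlapped those of every other time point. Of the last steps of the cycle, Fh1 was at 569 ± 26.8 CPM at ZT0, 491 ± 33.3 at ZT3, 516 ± 27.6 at ZT6, 519 ± 41.7 at ZT9, 543 ± 30.1 at ZT12, 526 ± 44.9 at ZT15, 555 ± 18.3 at ZT18 and 546 ± 36.8 at ZT21. Mdh2 was at 928 ± 60.2 CPM at ZT0, 790 ± 28.6 at ZT3, 836 ± 41.5 at ZT6, 837 ± 73.6 at ZT9, 858 ± 25.3 at ZT12, 848 ± 109 at ZT15, 869 ± 28.9 at ZT18 and 869 ± 60.9 at ZT21. In Fh1 and Mdh2 the TMM-scaled means of ZT6 to ZT21 lay between those of ZT3 and ZT0.

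The genes lie on 8 chromosomes of the GRCm38 assembly: Cs at chr10:128337734-128362479, Idh3a at chr9:54586334-54604661, Idh3b at chr2:130279309-130284547, Idh3g at chrX:73778963-73786897, Ogdh at chr11:6291633-6356642, Suclg1 at chr6:73248382-73276911, Suclg2 at chr6:95473009-95718800, Fh1 at chr1:175600374-175625635 and Mdh2 at chr5:135778480-135790398. Counts cover their exons, coding sequence and untranslated regions together. Idh3b shares 5 exon bases with Nop56 on the opposite strand, and the other 8 share none with another gene. Of Suclg2, 11.9% of the 100-base stretches of its transcript also occur in the processed pseudogene Gm15163, so its count is less certain than those of the other 8, for which no such stretch was found.

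With counts scaled by TMM, edgeR's trimmed mean of M values, no daily rhythm was detected in any of the TCA cycle enzymes. With JTK_CYCLE, a rank test against cosine templates, 0 of 9 passed P under 0.05, with P from 0.111 (Idh3b) to 1, while 36.4% of all tested genes passed. With the Benjamini-Hochberg (BH) adjustment 0 of 9 passed beside 27.1% of all genes. A 24 h cosine fitted with edgeR's quasi-likelihood test was called for 0 of 9 (adjusted p 0.136 to 0.971, 0 with an unadjusted p under 0.05, 0 by DESeq2), against 36.1% of all genes. Abundant genes were called more often than this background: among the 1245 genes with a mean of at least 100 CPM, as all 9 enzymes have, 45.5% passed JTK and 44.2% the cosine.

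The fitted amplitudes were small and their intervals narrow. Peak-to-trough folds ran from 1.01 for Cs to 1.09 for Idh3g, and the upper 95% limits from 1.11 for Cs to 1.23 for Idh3g. The lower 95% limit lay just above 1 for Idh3b, whose interval ran from 1.002 to 1.17, and was 1 for the other 8. Of Cs, a daily change above 1.11-fold thus lay outside the interval. The median amplitude of the 9 was 0.05 on the log2 scale, beside 0.14 over all tested genes and 0.11 over genes of at least 100 CPM. Their spread between mice of one time point was narrow as well, with a median SD of 0.11 log2 units beside 0.20 over all genes and 0.14 over genes of at least 100 CPM. Fitted peaks of 7 of the 9 fell between ZT16 and ZT22, but no cosine passed the adjusted test and these times are no more than descriptions. When counts were scaled by library size alone, 2 of 9 passed JTK and the cosine, Idh3b (exact JTK P = 0.000529 and edgeR cosine adjusted p = 0.0274) and Fh1 (exact JTK P = 0.0072 and edgeR cosine adjusted p = 0.0438). JTK, whose P comes from an exact null, also called Idh3b (P = 0.0296) and Idh3g (P = 0.0385) without replicate 1 of ZT15, and Idh3g (P = 0.0345) without the 8 libraries high in muscle markers.

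A test of any difference between the 8 time points, which needs no cosine shape, called 0 of 9 with edgeR, beside 39.8% of all genes. Idh3g came closest (adjusted p = 0.0545) and was the 1 gene with an unadjusted p under 0.05. DESeq2 called it (adjusted p = 0.0203), beside 45.2% of all genes. Its edgeR test also passed without replicate 4 of ZT0 (adjusted p = 0.0171), replicate 2 of ZT9 (0.0448), replicate 1 of ZT15 (0.0208) or replicate 3 of ZT15 (0.044). Its mean was 1101 ± 108 CPM at ZT0 (SD, n = 4), 891 ± 55.8 at ZT3 and between 920 and 1001 CPM at the other time points. With lane as a further term the cosine was called for 0 of 9 (adjusted p 0.256 to 0.938 with edgeR, 0 with an unadjusted p under 0.05, 0 by DESeq2), beside 17.2% of all genes. Without replicate 1 of ZT15 this fit called 1 of 9, Idh3g (edgeR adjusted p = 0.0374), beside 20.7% of all genes. Within lane 2, that is among ZT0, ZT3 and ZT6, edgeR called 1 of 9, Idh3g (adjusted p = 0.0421), beside 12.7% of all genes, with 4 of 9 at an unadjusted p under 0.05 and 3 called by DESeq2. That call was kept without replicate 4 of ZT0 or replicate 1 of ZT3 and lost without any of the other 10 mice of the lane. It was also lost with library size alone, no filter, the replicate block and the fibroblast covariate, and without the libraries high in muscle or the 4 highest in fibroblast markers. Within lane 3 edgeR called 0 of 9 beside 1.75% of all genes, and within lane 4 it called 0 of 9 beside 4.06%; in each of these lanes 0 had an unadjusted p under 0.05 and DESeq2 called 0.

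Time points 12 h apart differed little in these genes. At the onset of dark against the onset of light, ZT12 against ZT0, 8 of 9 were lower with log2 fold changes from -0.15 to 0.05. At ZT15 against ZT3 all 9 were higher, by 0.02 to 0.12, at ZT18 against ZT6 6 were higher and 3 lower, and at ZT21 against ZT9 all 9 were higher, by 0.04 to 0.07. In none of the 4 comparisons did edgeR or DESeq2 call any of the 9 (0 with an unadjusted p under 0.05 in each), whereas 15.9%, 14.2%, 16.9% and 9.62% of all genes were called in turn. The 95% intervals of the 36 differences lay between -0.32 and 0.33 on the log2 scale. With the summed fibroblast markers as a covariate the directions changed, and all 9 were lower at ZT21 than at ZT9 and 7 of 9 higher at ZT12 than at ZT0, again with none called.

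**Figure D2:**
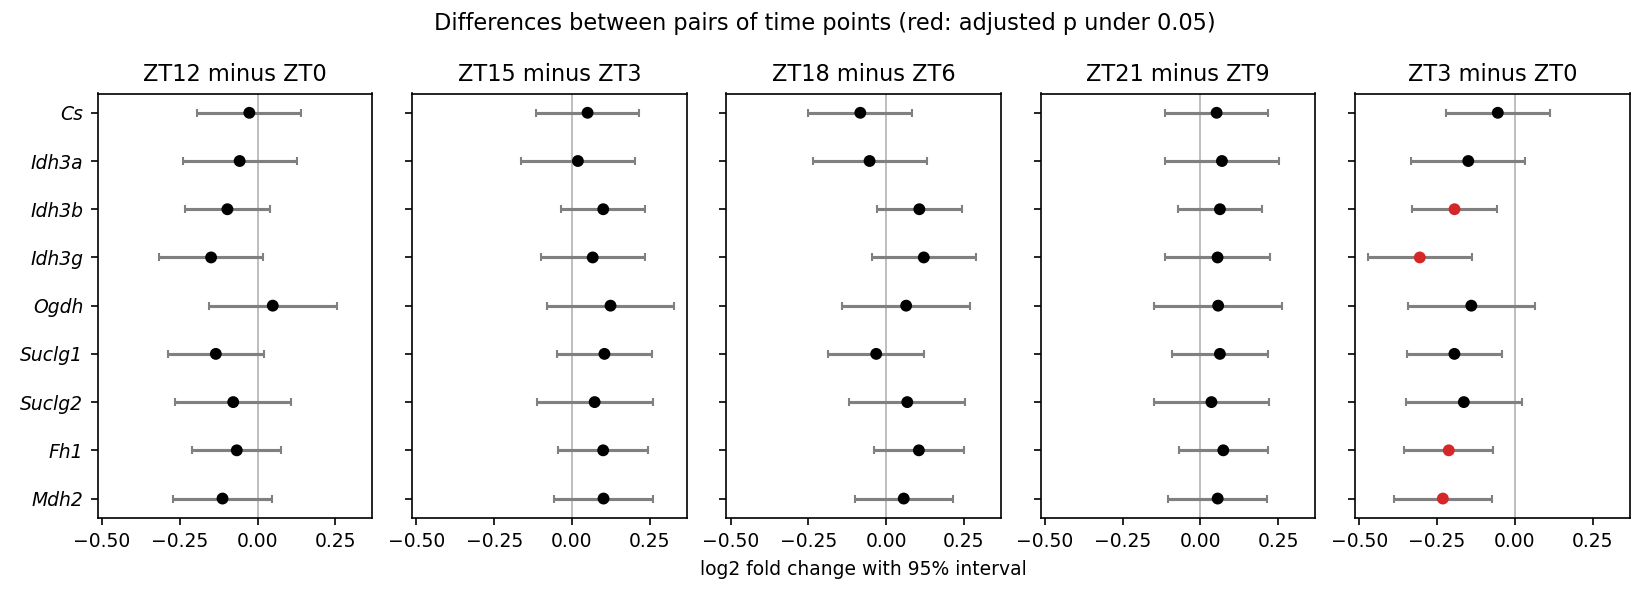
Log2 fold change (horizontal axes) of each enzyme (vertical axis) in 5 comparisons of time points, with 95% intervals from edgeR; red points passed an adjusted p of 0.05. The intervals of the 4 comparisons 12 h apart all include 0, and at ZT3 against ZT0 those of Idh3b, Idh3g, Fh1, Mdh2 and Suclg1 lie below 0, Suclg1 without a pass of the adjusted test.

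The clearest shift was a lower level at ZT3 than at ZT0, a comparison that was singled out after the values were seen. All 9 enzymes were lower at ZT3, with log2 fold changes from -0.31 to -0.05 and a median of -0.19, beside a median of 0.01 over all genes. With edgeR 4 of 9 passed, Idh3b, Idh3g, Fh1 and Mdh2, where 13.8% of all genes passed in either direction and 6.60% as lower at ZT3. DESeq2 called 4 as well, beside 15.2% of all genes, whereas a fit of the 8 libraries of ZT0 and ZT3 alone called 0 of 9, beside 5.99%. In 4 of 9 the mice did not overlap, as was so for 16.0% of all genes.

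Idh3g, a regulatory subunit of isocitrate dehydrogenase, was at 1207, 1097, 1146 and 954 CPM in the 4 mice of ZT0 and at 948, 829, 859 and 927 CPM in those of ZT3. The lowest mouse of ZT0 stood just above the highest of ZT3, so the groups did not overlap. The log2 fold change was -0.31 ± 0.08 (SE; edgeR, adjusted p = 0.0144). Mdh2, which regenerates the oxaloacetate that citrate synthase uses, was at 931, 845, 989 and 946 CPM at ZT0 and at 833, 773, 777 and 777 CPM at ZT3. Again the 4 values of ZT3 were all below those of ZT0, and 3 of them were nearly equal. Its log2 fold change was -0.23 ± 0.08 (SE; edgeR, adjusted p = 0.0443).

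Fh1, which hydrates fumarate to malate, was at 605, 548, 574 and 548 CPM at ZT0 and at 534, 460, 470 and 499 CPM at ZT3, with a log2 fold change of -0.21 ± 0.07 (SE; edgeR, adjusted p = 0.0425). Idh3b, the other regulatory subunit, was at 1355, 1207, 1333 and 1255 CPM at ZT0 and at 1206, 1056, 1085 and 1155 CPM at ZT3, with a log2 fold change of -0.19 ± 0.07 (SE; edgeR, adjusted p = 0.0495). In Fh1 the groups stood apart, and in Idh3b they nearly touched, at 1206 and 1207 CPM. Suclg1 had a log2 fold change of -0.19 (95% interval -0.35 to -0.04) with an adjusted p of 0.0794 in edgeR, and its mice overlapped. The catalytic subunit Idh3a (-0.15, 95% interval -0.33 to 0.03), Ogdh (-0.14, -0.35 to 0.07), Suclg2 (-0.16, -0.35 to 0.02) and Cs (-0.05, -0.22 to 0.11) did not pass.

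Markers of several cell types differed between the same mice. Summed fibroblast markers were at 222 to 317 CPM in the mice of ZT0 and at 372 to 594 CPM in those of ZT3, with no overlap, and their lowest and highest time-point means were those of ZT0 (281 CPM) and ZT3 (493 CPM). Summed markers of adipocytes of any kind (Adipoq, Fabp4, Plin1 and Pparg) were at 8653 ± 536 CPM at ZT0 and 7575 ± 530 at ZT3 (SD, n = 4 each), also their highest and lowest time points. The 8 brown adipocyte markers summed to 6113 ± 575 CPM at ZT0 and 5084 ± 282 at ZT3, and the 6 leukocyte markers to 41.7 ± 9.14 and 70.5 ± 15.2 CPM (SD, n = 4 each), and in each list the mice of the groups overlapped. Endothelial markers were at 852 ± 99.6 and 865 ± 35.6 CPM, and muscle markers overlapped widely, from 59.1 to 5723 CPM at ZT0 and from 62.9 to 7846 CPM at ZT3. The 5 red blood cell markers summed to 688 ± 165 CPM at ZT0 and 427 ± 128 at ZT3, and the 3 white adipocyte markers found in the table to 161 ± 56.8 and 118 ± 35.3 CPM (SD, n = 4 each), with overlap in both. The 3 Schwann cell markers summed to 12.5 to 21.9 CPM at ZT0 and to 14.3 to 156 CPM at ZT3. With the fibroblast markers as a covariate 0 of 9 were called, 6 of 9 remained lower at ZT3 and the median log2 fold change was -0.06, while 2.15% of all genes were called. This fit cannot part the time points from the markers, because the summed fibroblast markers of ZT0 and ZT3 did not overlap. Of the 4 fibroblast markers 3 passed the 24 h cosine themselves, beside 36.1% of all genes. The part of the cell makeup in the difference was not tested. The count of calls was 2 without the 4 libraries highest in fibroblast markers, beside 12.7% of all genes. It was 1 under library-size scaling (12.2% of all genes), with mitochondrially encoded genes removed (13.6%), with no filter (4.56%) and with the replicate block (13.1%). Without the libraries high in muscle markers it was also 1 (8.77%), and 7 of 9 were lower. In the library-size scaling, which moved the median of all genes to 0.07, 8 of 9 were lower, Cs being the exception. Leaving out replicate 1 of ZT0 left 0 calls, and leaving out replicate 3 of ZT0 or replicate 2, 3 or 4 of ZT3 left 1. It was 2 without replicate 3 of ZT6, replicate 2 of ZT12, replicate 2 or 3 of ZT18 or replicate 1 or 4 of ZT21. All 9 stayed lower at ZT3 in each fit that left out 1 library.

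The promoters of the 4 enzymes called at ZT3 against ZT0 are given next, to show the sequence at the members past the threshold in that comparison. The choice rests on the calls above, which changed with the settings named there. Each runs from 250 bases before the annotated start to 20 bases after it (RefSeq, GRCm38.p6), read 5′ to 3′ on the strand of the gene. Capitals mark matches to 5 motifs searched on both strands, with no overlap between matches: AAGGTCA (the short site bound by estrogen-related receptors), CACGTG (the E-box of clock activators), TGACGTCA (the cyclic AMP response element), GCGCATGCG (a core of the nuclear respiratory factor 1 site) and CCGGAAG (bound by GABPA and other ETS factors). The windows are chr2:130284432-130284701 on the minus strand for Idh3b, chrX:73786878-73787147 on the minus strand for Idh3g, chr1:175625616-175625885 on the minus strand for Fh1 and chr5:135778399-135778668 on the plus strand for Mdh2.
Idh3b: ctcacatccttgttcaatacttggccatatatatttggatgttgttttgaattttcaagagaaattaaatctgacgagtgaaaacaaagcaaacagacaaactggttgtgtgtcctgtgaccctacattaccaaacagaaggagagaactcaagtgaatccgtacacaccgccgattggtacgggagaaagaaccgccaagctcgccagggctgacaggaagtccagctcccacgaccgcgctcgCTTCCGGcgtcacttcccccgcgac
Idh3g: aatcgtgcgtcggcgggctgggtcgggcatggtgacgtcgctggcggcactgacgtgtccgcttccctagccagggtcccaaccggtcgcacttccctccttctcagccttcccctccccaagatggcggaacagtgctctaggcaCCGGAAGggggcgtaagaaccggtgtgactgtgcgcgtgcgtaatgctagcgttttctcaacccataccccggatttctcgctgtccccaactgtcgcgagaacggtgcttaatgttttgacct
Fh1: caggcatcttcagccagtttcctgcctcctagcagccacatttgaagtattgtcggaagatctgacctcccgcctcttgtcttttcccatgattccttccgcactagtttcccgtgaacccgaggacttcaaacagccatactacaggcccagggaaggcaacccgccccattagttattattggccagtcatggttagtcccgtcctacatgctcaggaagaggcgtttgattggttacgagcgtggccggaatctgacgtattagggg
Mdh2: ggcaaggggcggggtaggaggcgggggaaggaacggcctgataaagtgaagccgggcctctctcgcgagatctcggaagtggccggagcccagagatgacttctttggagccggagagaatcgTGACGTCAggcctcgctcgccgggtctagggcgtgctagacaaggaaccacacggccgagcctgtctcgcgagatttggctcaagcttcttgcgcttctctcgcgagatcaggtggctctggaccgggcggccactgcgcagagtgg

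Idh3b and Idh3g each held 1 CCGGAAG match, 5 bases before the start of Idh3b and 104 bases before the start in Idh3g, and this motif occurred in 8.86% of all 32851 promoter windows of 300 bases. Mdh2 held 1 TGACGTCA match, which 1.79% of all windows hold. No match to these letters was found in the Fh1 window, nor in those of Cs, Suclg1 and Suclg2. Ogdh has 6 annotated starts whose windows partly overlap, and among them were matches to AAGGTCA (held by 4.72% of all windows), CACGTG (7.15%), TGACGTCA and GCGCATGCG (1.75%). Matches are descriptions of sequence, and 8 of the 9 genes were in the promoter table, Idh3a being the other.

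Mice of the same time point differed together in the 9 enzymes, to an extent that depended on the scaling. Deviations of log2 CPM from the time-point mean were positively correlated in all 36 pairs of genes, with Pearson's r from 0.45 to 0.94 and a median of 0.73 (n = 32 libraries). All 36 passed a two-sided permutation test within time points after BH adjustment over the 36 pairs, as did Spearman's rho (0.40 to 0.91). How many pairs of other genes would pass was not tested, so the relation is not shown to be particular to these enzymes. For the isocitrate dehydrogenase subunits Idh3b and Idh3g r was 0.87 and rho 0.84 (permutation p = 1e-05, the smallest that 100000 resamples can give, and BH-adjusted p = 5.14e-05 for each). Without the 2 libraries farthest from the median of Idh3b r was 0.85 (permutation p = 1e-05). In each lane taken alone the relation held, with r = 0.72 in lane 2, 0.95 in lane 3 and 0.92 in lane 4 (0.0216, 0.00101 and 0.0104 by exact permutation). The catalytic subunit Idh3a followed Idh3b with r = 0.72 and rho = 0.71 (permutation p = 0.00021 and 0.00022, adjusted p = 0.000329 and 0.000344), with r = 0.63 without its 2 farthest libraries (permutation p = 0.00466). In lanes 2 and 3 r was 0.73 and 0.76 (0.0148 and 0.025 by exact permutation), and in lane 4, with 8 libraries, it was 0.65 and did not pass (0.271). Idh3a and Idh3g gave r = 0.69 and rho = 0.71 (permutation p = 0.00012 and 0.00011, adjusted p = 0.000216 and 0.000247), and r = 0.64 without its 2 farthest libraries (permutation p = 0.00186). This pair passed in lane 3 (r = 0.85, 0.00615 by exact permutation) and missed the threshold in lane 2 (r = 0.52, 0.0608) and lane 4 (r = 0.51, 0.247).

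The alpha and beta subunits of the GDP-forming ligase, Suclg1 and Suclg2, were tied least closely, with r = 0.45 and rho = 0.40 (permutation p = 0.0266 and 0.0461, adjusted p = 0.0266 and 0.0461). This relation rested on few libraries, as r was 0.28 without the 2 farthest ones (permutation p = 0.271) and 0.36, 0.80 and 0.06 lane by lane (0.299, 0.0184 and 0.92 by exact permutation). The closest pair was Idh3b with Fh1 (r = 0.94, rho = 0.91, permutation p = 1e-05 and adjusted p = 5.14e-05 for each), 2 enzymes of different steps of the cycle, a pair that was singled out after the values were seen. Without the 4 libraries highest in fibroblast markers all 36 pairs were still positive, with r from 0.20 to 0.90 and a median of 0.61, and 26 passed after BH adjustment. With counts scaled by library size alone all 36 were positive as well, with r from 0.16 to 0.84 and a median of 0.52, and 27 passed. At its extremes the TMM factor moved with the level of the set. The lowest factors, 0.923 and 0.924 in replicates 3 and 1 of ZT0, went with mean z scores over the 9 enzymes of 1.13 and 1.52. The highest, 1.09 in replicate 1 of ZT15, went with -2.23. Other libraries departed from this, such as replicate 2 of ZT6 (0.978, z score -1.05) and replicate 4 of ZT0 (1.02, z score 0.79). The part of the TMM factor in the correlations was not tested beyond the comparison of scalings.

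**Figure D3:**
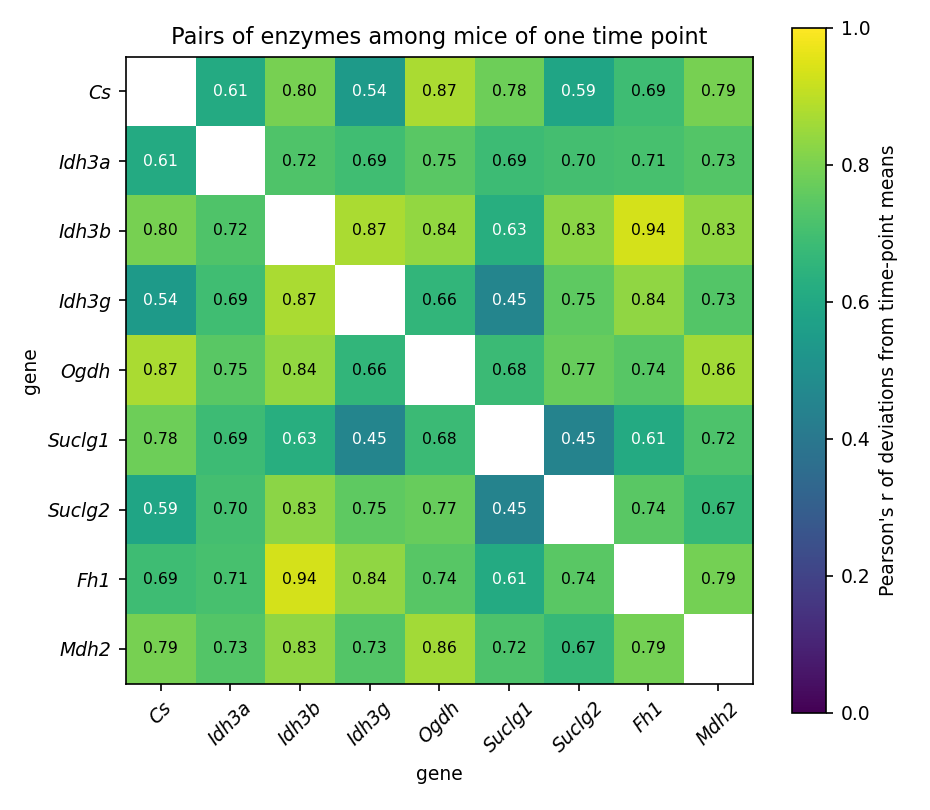
Pearson's r between each pair of the 9 enzymes (both axes), computed over 32 libraries on deviations of log2 CPM from the time-point means; colour and printed number give r. All 36 pairs are positive, with the highest r for Idh3b and Fh1 and the lowest for Suclg1 with Suclg2 and with Idh3g.

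With TMM scaling a few mice carried low levels of the whole set. In replicate 2 of ZT6, replicate 3 of ZT9 and replicate 1 of ZT15 all 9 enzymes were the lowest of their time point. The mean z score over the 9 genes was lowest in the ZT15 mouse, at -2.23, and highest in replicate 1 of ZT0, at 1.52. These 3 libraries also had the highest summed fibroblast markers of their time points, at 697, 627 and 576 CPM, and together with replicate 2 of ZT3 (594 CPM, mean z score -1.53) they were the 4 highest of all 32. The TMM factors of these 4 libraries were 0.978 (ZT6), 1.07 (ZT9), 1.09 (ZT15) and 1.06 (ZT3). With library size alone all 9 enzymes were still the lowest of their time point in the ZT6 and ZT15 mice, but 2 of 9 were in the ZT9 mouse, and the mean z scores were -1.73, -1.48 and -0.64. The ZT15 mouse had the lowest summed brown adipocyte markers of all libraries (3712 CPM), the second highest summed muscle markers (7843 CPM) and a mitochondrial share of 26.7%. Without the 4 libraries the counts of called enzymes in JTK, the cosine and the time-point test were still 0 of 9, 0 of 9 and 0 of 9.

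**Figure D4:**
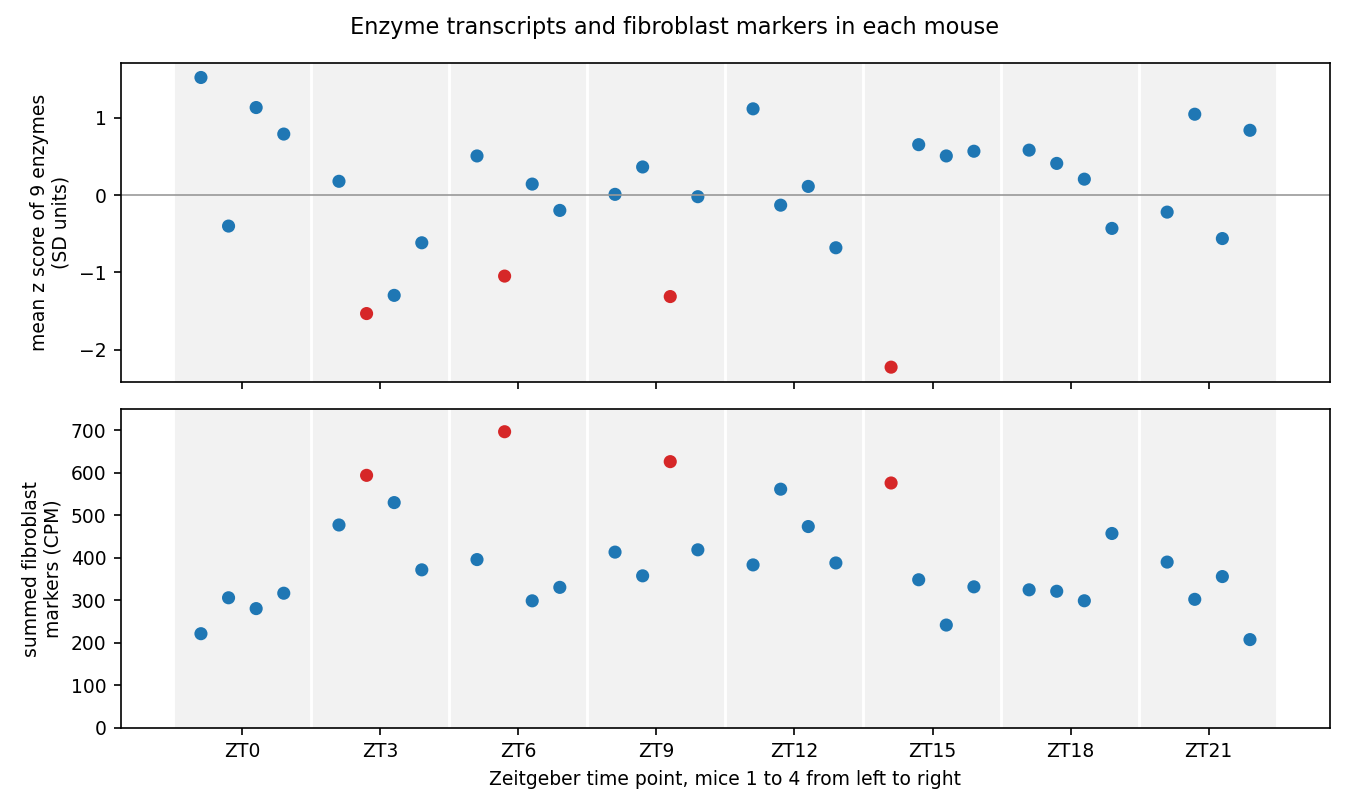
Mean z score of the 9 enzymes (upper panel, SD units of each gene over 32 libraries) and summed CPM of 4 fibroblast markers (lower panel, from 0) in each mouse, by time point; red points are the 4 libraries highest in fibroblast markers. Their mean z scores lie between -2.23 and -1.05, among the 5 lowest of the 32 with TMM scaling.

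Of the genes outside the 9, Acadvl followed them most closely over the 32 libraries. Acadvl, which starts the oxidation of very long chain fatty acids, had r = 0.94 with the mean z score of the 9. It was followed by the ATP synthase subunits Atp5a1 (r = 0.94) and Atp5b (r = 0.90), the complex I subunit Ndufs1 (r = 0.92) and the complex III subunit Uqcrc1 (r = 0.90). Most opposed were Tmem176b (r = -0.81), Dcn (r = -0.79), Mmp2 (r = -0.78), C1s1 (r = -0.77) and Emp1 (r = -0.75). Dcn encodes the matrix proteoglycan decorin and Mmp2 a matrix protease, and Dcn is among the fibroblast markers. These r values share libraries and depth and are descriptions.

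In 8 further enzymes of the cycle no 24 h cosine was called either. Of Idh2, Dlst, Dld, Sucla2, Sdha, Sdhb, Sdhc and Sdhd, 0 of 8 passed the cosine with edgeR, beside 36.1% of all genes, and 0 of 8 passed JTK. Idh2, the NADP-dependent isocitrate dehydrogenase of mitochondria, had the widest fitted fold of this list, 1.24 (edgeR adjusted p = 0.108). The median amplitude of the list was 0.05 on the log2 scale. The cytosolic counterparts Idh1, Mdh1, Aco1 and Got1 gave 0 of 4 past the cosine, with a median amplitude of 0.09.

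Genes of the routes into and out of the cycle were read against the 36.1% of all tested genes that passed the cosine, and their counts lay near or below that share. Of 13 genes of pyruvate entry 5 passed with edgeR, 3 with a fitted peak in the light phase and 2 in the dark. Pdk4, a kinase that shuts off pyruvate dehydrogenase, changed 2.5-fold from peak to trough (adjusted p = 0.0038) and ran from a mean of 458 CPM at ZT15 to 1913 CPM at ZT3. Mpc1, a subunit of the mitochondrial pyruvate carrier, changed 1.48-fold with a peak at ZT18.2 (adjusted p = 0.0195), the pyruvate dehydrogenase subunit Pdhb 1.45-fold with a peak at ZT0.446 (adjusted p = 0.0459) and the phosphatase Pdp2 1.38-fold with a peak at ZT9.42 (adjusted p = 0.00472). Pdhb was not called without any 1 of 17 of the 32 libraries (adjusted p 0.0511 to 0.086). Beside lane 1 of the 13 passed, Pdk4 (edgeR adjusted p = 0.00968), where 17.2% of all genes passed.

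Of 14 genes that fill or drain the cycle 4 passed the cosine, beside 36.1% of all genes, and 5 passed JTK, beside 36.4%. Acly, which cleaves exported citrate to acetyl-CoA for fat synthesis, changed 3.31-fold with a peak at ZT21.7 (edgeR adjusted p = 0.00742), and Me1, the cytosolic malic enzyme, 2.24-fold with a peak at ZT0.343 (edgeR adjusted p = 0.019, and 0.0512 without replicate 3 of ZT0). Slc25a11, the carrier of 2-oxoglutarate and malate, changed 1.28-fold with a peak at ZT11.6 (edgeR adjusted p = 5.85e-05), and glutamate dehydrogenase Glud1 1.26-fold with a peak at ZT13.3 (edgeR adjusted p = 0.0011). Among the 7 transcription regulators of mitochondrial genes 3 passed, again beside 36.1% of all genes: Esrrg (1.55-fold, peak at ZT9.38, edgeR adjusted p = 0.00144), Nrf1 (1.37-fold, peak at ZT16.5, edgeR adjusted p = 1.83e-05) and Esrra (1.28-fold, peak at ZT10.5, edgeR adjusted p = 0.000575). The other 4 did not pass, with folds of 1.38 for Ppargc1a (edgeR adjusted p = 0.0985), 1.11 for Ppargc1b (0.852), 1.14 for Gabpa (0.276) and 1.04 for Tfam (0.688). Beside lane, with 17.2% of all genes as background, 1 of the 14 passed, Me2 (edgeR adjusted p = 0.0204), which had not passed the cosine alone, and 2 of the 7, Nrf1 (adjusted p = 0.00569) and Ppargc1a (adjusted p = 0.0218). Whether the lists differed from the 9 enzymes was not tested.

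**Figure D5:**
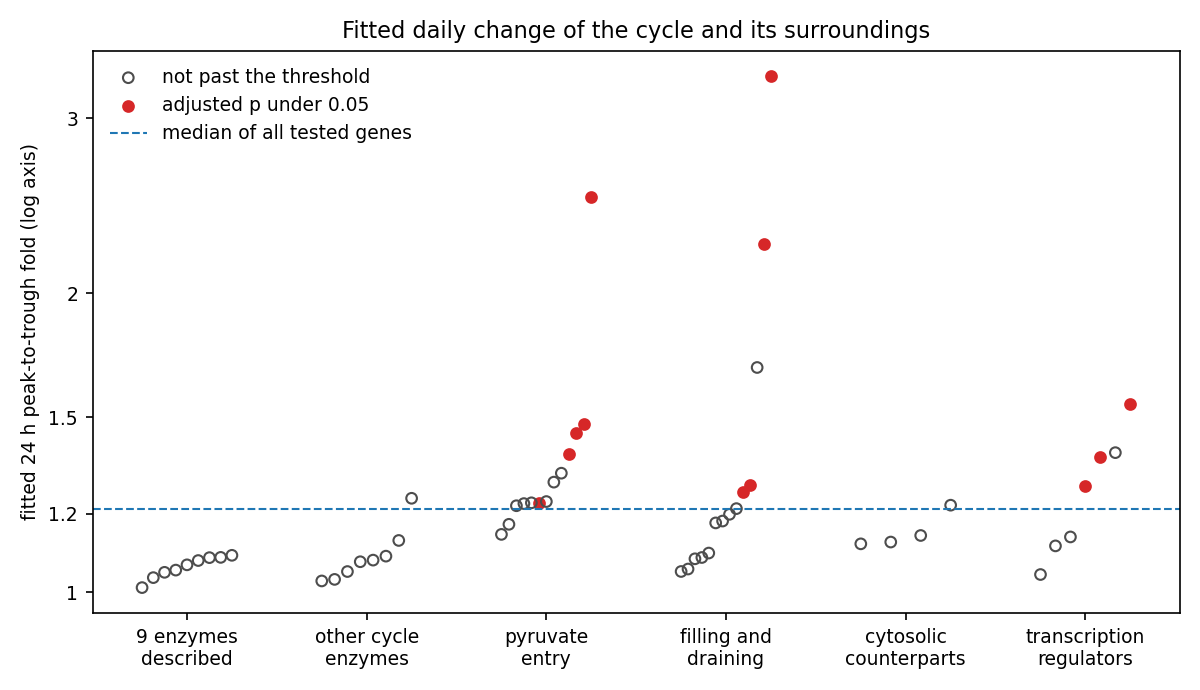
Fitted 24 h peak-to-trough fold (vertical axis, log scale) of the 9 enzymes and of 5 lists of related genes (horizontal axis); each point is 1 gene, red where edgeR's adjusted p was under 0.05, and the dashed line is the median of all tested genes. All 9 enzymes lie between 1.01 and 1.09, below the line at 1.21, and Acly is the highest point at 3.31.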

How the data were processed

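Stranded RNA-seq libraries came from 32 iBAT samples. The authors deposited raw read counts per Ensembl gene, without normalization. Per the submitters' processing notes GSNAP, HTSeq (0.6.1) and the mm10 genome were used, and the strand setting of the counting is not given in the sources used here. The members and gene lists were chosen with earlier results of these data known. Genes were filtered with filterByExpr and scaled with TMM in edgeR 4.0.16 (R 4.3.3), which kept 15505 of 50686 genes (20100 had no count). JTK_CYCLE was an own implementation with cosine templates of 21 and 24 h period, an exact null and correction over 15 templates, at P under 0.05. Count models were edgeR's quasi-likelihood tests over all 32 libraries with BH adjustment over all tested genes. Amplitudes come from log2 CPM with a prior count of 2. DESeq2 1.42.0 was an alternative. Gene loci come from GENCODE vM21, which is not the release counted with. Named genes are all 9 enzymes, all genes of a list under 10 members, up to 4 of a longer list by amplitude among those past the cosine threshold, and the 5 most alike and 5 most opposed with a mean of at least 10 CPM. 1 gene of the lists is not reported here. Genes named for passing beside lane were added after their values were seen. P-values measure the spread between these mice. JTK, the cosine with and without lane and the test between time points were tried on simulated counts with known cosines. The outcome is not given here. Counting error alone is small at the lowest count of an enzyme, 1613 reads.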

Additional observations from a re-analysis of the deposited data

Results flagged for a closer look

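In 6 of the 72 groups of 4 mice (9 enzymes at 8 time points) 1 mouse stood far from the other 3, and chance marks about 1 group in 20 in this way. Of these 4 were from 1 mouse, replicate 1 of ZT15, which was low in Idh3a at 1040 CPM (nearest of the others 1251 CPM), in Idh3b at 1044 CPM (nearest 1251 CPM), in Ogdh at 2480 CPM (nearest 3251 CPM) and in Mdh2 at 686 CPM (nearest 886 CPM). The summed fibroblast markers of this library were 576 CPM, its muscle markers 7843 CPM and its brown adipocyte markers 3712 CPM. Their part in the low levels was not tested. At ZT0 replicate 2 was low in Ogdh at 2520 CPM, with the nearest other mouse at 3329 CPM. At ZT3 replicate 1 was high in Mdh2 at 833 CPM, with the other 3 mice at 773 to 777 CPM.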

How the results depend on the processing

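Of the main counts, levels and correlations recomputed under other settings 152 kept their side of the threshold or moved less than the spread, 31 moved and 8 correlations no longer passed. JTK called 2 of 9 enzymes with scaling by library size alone and 1 without the libraries high in muscle markers. The cosine called 2 with library size alone. The test between time points called 1 with library size alone, with genes of at least 1 CPM, with muscle markers as covariate and by DESeq2. Within lane 2 the count was 0 with library size alone, no filter, the replicate block, without the libraries high in muscle markers, without the 4 highest in fibroblast markers and with the fibroblast covariate, and 3 by DESeq2. At ZT3 against ZT0 it was 1 with library size alone, without mitochondrially encoded genes, with no filter, with the replicate block and without the muscle-high libraries, 2 without the 4 libraries highest in fibroblast markers, and 0 with the fibroblast covariate and in a fit of those 8 libraries alone, which has fewer samples. Leaving out 1 library gave 0 to 2 calls in JTK, 0 to 1 between time points, beside lane and within lane 2, and 0 to 4 at ZT3 against ZT0. The share of all genes called moved with the setting as well. At ZT3 against ZT0 it was 2.15% with the fibroblast covariate and 16.4% with the muscle covariate. The cause of the other changes was not tested. Among single enzymes 1102 values stayed on their side of the threshold and kept their direction under other settings, 28 no longer passed and 11 newly passed. The ZT3 comparison, the omission of the 4 fibroblast-high libraries and the fibroblast covariate were chosen after seeing the data.

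Replicate numbers did not pair the mice (median r of -0.12 over 112 pairs of the same number and 0.07 over 336 other pairs, and 8 of 32 libraries closest to their own number), and with the replicate block Idh3b and Idh3g gave r = 0.90. Over the longest transcript the levels in CPM per kb were 896 for Cs, 753 for Ogdh, 587 for Idh3b, 532 for Mdh2, 484 for Idh3a, 464 for Idh3g, 275 for Suclg1, 202 for Fh1 and 32.5 for Suclg2. The r of Idh3a with Idh3b was 0.65 in lane 4, and that of Idh3a with Idh3g 0.52 in lane 2 and 0.51 in lane 4. The r of Suclg1 with Suclg2 was 0.16 with library size alone, 0.36 in lane 2, 0.057 in lane 4, 0.28 without the 2 farthest libraries, 0.23 without the 4 fibroblast-high libraries and 0.32 to 0.53 with 1 library left out. At the depth of these libraries counting error is small beside the spread between mice, and 4 mice per time point limit what can be detected.

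In 29 cases the log2 fold change of an enzyme that was not called changed sign under another setting and was again not called. With the fibroblast covariate the log2 fold changes became 0.082 (Cs), 0.10 (Idh3a), 0.011 (Idh3b), 0.049 (Suclg2), 0.045 (Fh1) and 0.0077 (Mdh2) at ZT12 against ZT0. Those that changed sign were -0.024 (Cs), -0.090 (Idh3a), -0.028 (Idh3g) and -0.012 (Suclg2) at ZT15 against ZT3. They became -0.037 (Cs), -0.057 (Idh3a), -0.023 (Idh3b), -0.052 (Idh3g), -0.048 (Ogdh), -0.030 (Suclg1), -0.062 (Suclg2), -0.014 (Fh1) and -0.037 (Mdh2) at ZT21 against ZT9. Those that changed sign were 0.073 (Cs), 0.040 (Idh3a) and 0.018 (Ogdh) at ZT3 against ZT0. With library size alone they became 0.017 (Cs) at ZT12 against ZT0 and 0.0060 (Cs) at ZT3 against ZT0. Without the libraries high in muscle markers they became 0.093 (Cs) at ZT12 against ZT0, 0.072 (Cs) and 0.0071 (Ogdh) at ZT3 against ZT0 and 0.014 (Suclg1) at ZT18 against ZT6. Without the 4 libraries highest in fibroblast markers the value became -0.0026 (Mdh2) at ZT21 against ZT9. With 1 library left out the log2 fold change ran from -0.077 to 0.024 for Cs at ZT12 against ZT0, from -0.011 to 0.085 for Idh3a at ZT15 against ZT3, from -0.048 to 0.10 for Ogdh at ZT12 against ZT0, from -0.097 to 0.013 for Suclg1 at ZT18 against ZT6, from -0.16 to 0.022 for Suclg2 at ZT12 against ZT0 and from -0.0025 to 0.097 for Mdh2 at ZT21 against ZT9.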
